A study of Mus musculus with 4 samples.

Results

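Ccl3, Ccl4, Ccl5, Ccl6 and Ccl9, which encode CC chemokines, and Ccr1, which encodes a receptor for several of them, were followed across the cell classes of the inflamed mouse colon. The 6 genes were chosen by symbol from the 32285 genes listed for each sample, and all 6 were detected in every sample.

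CC chemokines are small secreted proteins that draw leukocytes along a gradient by engaging G protein-coupled receptors on the cell surface. CCL3 and CCL4 (macrophage inflammatory proteins 1-alpha and 1-beta) and CCL5 (RANTES) are made on demand by activated myeloid and cytotoxic cells. CCL3 and CCL5 bind CCR1. CCL6 and CCL9 are myeloid chemokines of rodents that act through CCR1, a receptor carried by neutrophils, monocytes and macrophages in tissues under bacterial challenge.

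The study compared mice lacking the aryl hydrocarbon receptor (AhR) with wild-type littermates during colitis induced with dextran sulfate sodium (DSS), an agent that injures the colonic epithelium. Each of the 4 samples held colonic lamina propria leukocytes, enriched with magnetic beads against CD45 and profiled by droplet single-cell RNA sequencing, and for each the study's methods state that cells of several mice were mixed. All 4 samples came from DSS-treated mice aged 10 weeks per the labels, and none was an untreated control. The labels do not say which samples carried the AhR deletion, so the samples are called 1 to 4, no genotype is compared, and no p-value is given for a difference between samples.

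The files held 45229 cells, from 8493 to 13730 per sample, and 39550 were kept after filters and doublet removal, with a median of 5633.5 to 7084 UMIs (unique molecular identifiers, counted molecules) per cell. Pairs of samples shared 23 to 49 cell barcodes, at most 0.423% of the smaller sample. Classes were gated on marker genes, none of them a member of the set, and 33344 cells fell into 17 classes, 5392 carried markers of unlike lineages and were set aside as mixed, and 814 met no gate. Fibroblasts, endothelial and epithelial cells were among the classes despite the CD45 enrichment. Neutrophils were 6.51% of kept cells in sample 2 and up to 25.1% in the others, and B cells were 3.28% to 28.3%, with the higher shares in samples 1 and 2. Levels are given as CPM, the UMIs of a gene summed over a class in a sample relative to all UMIs of that sum, on the counts-per-million scale. Intervals are exact 95% Poisson or binomial intervals that cover counting error only.

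The 5 chemokine genes lie within 138906 bases of chromosome 11 (GRCm38). Ccl5 (ENSMUSG00000035042, 83525778 to 83530518, minus strand) is followed by Ccl9 (ENSMUSG00000019122, 83572919 to 83578636, minus strand), Ccl6 (ENSMUSG00000018927, 83587882 to 83593087, minus strand), Ccl3 (ENSMUSG00000000982, 83647844 to 83649355, minus strand) and Ccl4 (ENSMUSG00000018930, 83662584 to 83664683, plus strand). Ccr1 (ENSMUSG00000025804) lies on chromosome 9, 123962124 to 123968692, minus strand. Ccl9 and Ccl6 are 9245 bases apart with no annotated gene between them, and Ccl3 and Ccl4 are 13228 bases apart with none between. Of the 6 genes, Ccl6 alone overlapped another annotated gene, the opposite-strand E230016K23Rik, which had 466 UMIs in gated cells against 83579 for Ccl6.

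The neighbours Ccl6 and Ccl9 were both high in monocytes and macrophages, whereas Ccl6 alone of the pair was high in neutrophils, as given further on, so the 250 bases before each start are shown, from RefSeq on GRCm38.p6, 5′ to 3′ on the minus strand. Capitals mark ACTTCC, the reverse complement of GGAAGT, a core motif of ETS factors such as PU.1. The Ccl6 window is chr11:83593088-83593337 and the Ccl9 window is chr11:83578637-83578886.
Ccl6: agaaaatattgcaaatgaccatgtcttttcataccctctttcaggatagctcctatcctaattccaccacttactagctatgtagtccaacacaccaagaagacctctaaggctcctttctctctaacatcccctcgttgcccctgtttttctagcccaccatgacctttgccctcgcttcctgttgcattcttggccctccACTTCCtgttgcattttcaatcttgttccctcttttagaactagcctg
Ccl9: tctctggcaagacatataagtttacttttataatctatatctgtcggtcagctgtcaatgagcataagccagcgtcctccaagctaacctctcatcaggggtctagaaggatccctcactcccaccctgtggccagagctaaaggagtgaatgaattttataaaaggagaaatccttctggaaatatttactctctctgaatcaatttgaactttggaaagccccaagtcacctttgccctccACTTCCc

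Each window held GGAAGT once on either strand, starting at position -48 from the start of Ccl6 and at -7 from that of Ccl9, as did 19.7% of 32851 promoter windows of this length. The best local alignment of the windows was a stretch of 17 positions with 16 identical, which contains the capitals in both. All patterns were searched on both strands. The Ccl9 window also held 1 match of TGANTCA (AP-1; 6.75% of windows), 1 of a paired NF-kB half-site pattern with a free spacer (45.8%) and 3 of TATAAA (12.4%), an overlapping pair on opposite strands included. None of these 3 patterns, nor TTGCNNAA (C/EBP; 9.56%), was in the Ccl6 window, which says only that these letters are absent from it. RefSeq promoter entries were matched for Ccl3, Ccl6, Ccl9 and Ccr1. Entries for Ccl4 and Ccl5 were not used here.

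With T cells split into CD4, CD8 and Trdc+ cells, 12 classes held 50 cells or more in each of the samples. T cells outside these gates, 1930 in all, and parts of the neutrophil and macrophage classes are not counted among the 12. Across the 12 classes the genes differed in pattern. Ccl6 and Ccr1 had similar levels in neutrophils, monocytes and macrophages, Ccl9 was high in monocytes and macrophages, lower in type 2 conventional dendritic cells (cDC2) and low in neutrophils, and Ccl3 and Ccl4 were shared between myeloid cells and NK or ILC1 cells. Ccl5 followed the cytotoxic lymphocytes. By median level over samples the leading class was the neutrophil for Ccl3, Ccl6 and Ccr1, the macrophage for Ccl4, the monocyte for Ccl9 and the NK or ILC1 class for Ccl5.

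**Figure D1:**
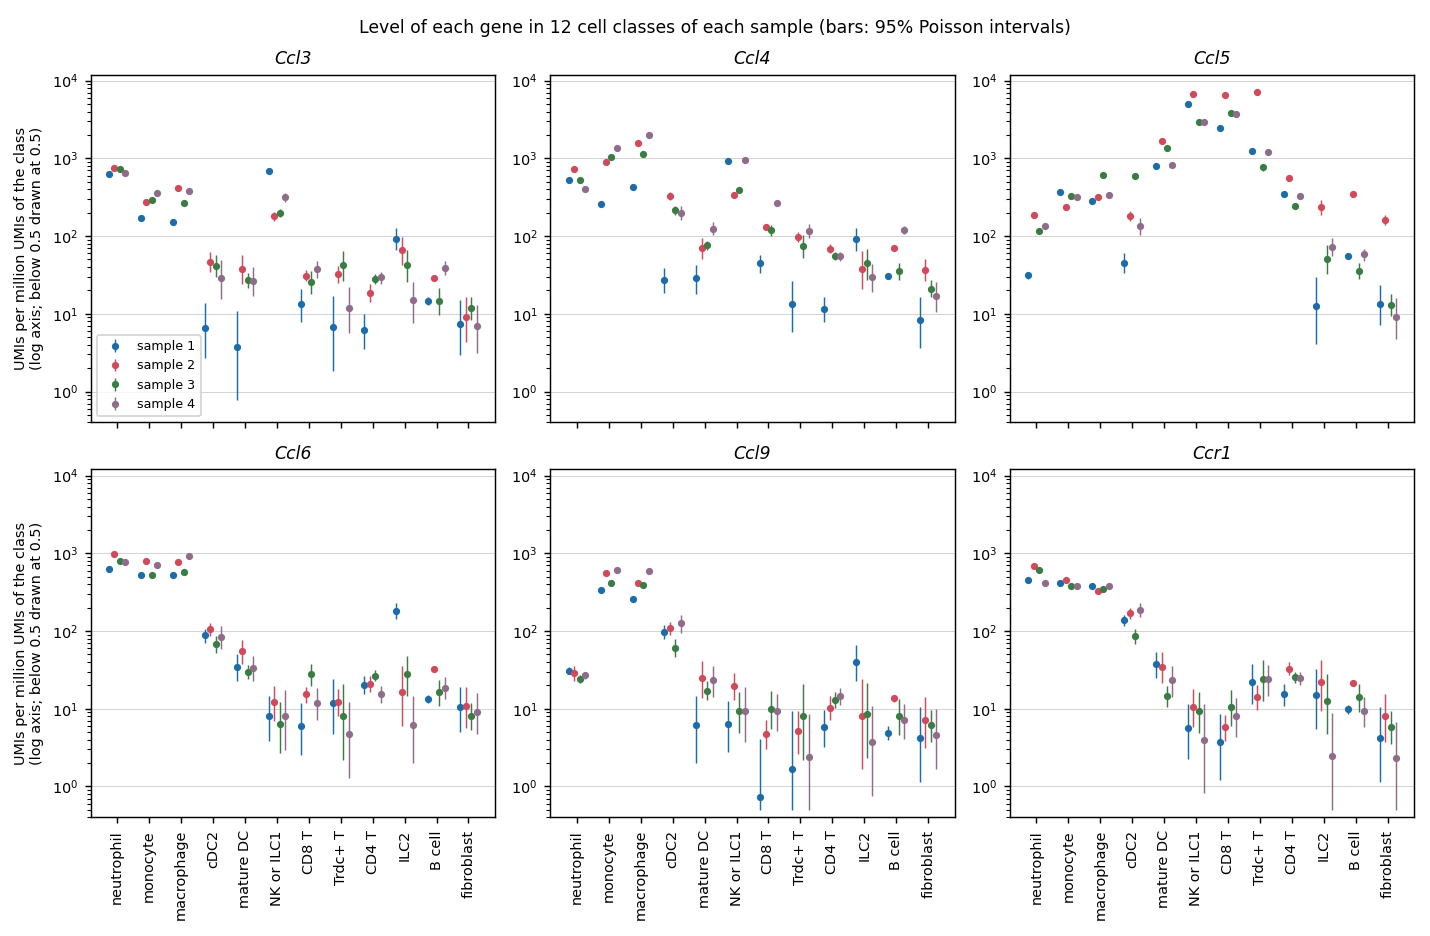
Level of each gene (CPM of the class, log axis) in 12 cell classes, with 1 point per sample and bars for 95% Poisson intervals; levels below 0.5 are drawn at 0.5. Ccl5 reached 7095 CPM in Trdc+ T cells of sample 2, and Ccl9 stayed at 24.1 to 30.9 CPM in neutrophils against 339 to 608 CPM in monocytes.

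Ccl3 stood at 629, 760.0, 726 and 649 CPM in the neutrophils of samples 1 to 4, with the highest sample 1.21 times the lowest. In NK or ILC1 cells Ccl3 was at 694, 181, 200.2 and 316 CPM. Of the 12 classes with 50 cells or more, these cells were highest in sample 1 and neutrophils in the other 3 samples. Macrophages as a whole (151, 410, 270 and 376 CPM) and monocytes (169, 274, 289 and 360 CPM) overlapped each other in range. Both lay below the neutrophils in every sample. A resident-like part of the macrophages, gated as given further on, held 715, 878, 899 and 639 CPM. This part exceeded the neutrophils in samples 1 to 3, with only 28 such cells in sample 1. The next of the 12 classes were far lower. Among them cDC2 held 6.62 to 47.1 CPM and ILC2 (group 2 innate lymphoid cells) 14.9 to 93.1 CPM. Mast cells or basophils, outside the 12, were 137 cells, with at least 50 in 1 sample only. Pooled over samples they held 779 CPM, against 677 CPM in pooled neutrophils. The order was the reverse in sample 2, the sample with at least 50 of them, at 174 CPM against 760.0 CPM in neutrophils. B cells, which are not known as a main source of these chemokines, held Ccl3 at 14.6 to 39.3 CPM.

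After each cell was thinned to 1000 UMIs, leaving out 1058 shallower cells of 39550, 39.6% to 44.7% of neutrophils held a Ccl3 UMI, against 1.36% to 3.36% of B cells. Without thinning the shares were 68.1% to 76.4% and 6.57% to 9.04%, at median depths of 3055.5 to 6032 UMIs in neutrophils and 3878 to 5234 in B cells. The share in neutrophils was thus far over that in B cells in every sample.

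Neutrophils rich in granule transcripts had less Ccl3 than granule-poor neutrophils in all 4 samples, at 582, 586, 686 and 627 CPM against 1206, 1247, 1052 and 1099 CPM. Granule-rich cells held at least 3 of 8 listed genes (Ngp, Camp, Ltf, Lcn2, Cd177, Mmp8, Ltb4r1 and Chil1). A deeper cell passes this gate more easily. Granule-rich cells were 5127 and granule-poor cells 1438, and whether they differ in maturity was not tested. The ratio was 0.470 to 0.652 and passed 2-fold in some samples only, where 1.12% of 6323 genes were at least 2-fold lower and 0.569% at least 2-fold higher in all 4 samples. Ccl4 and Ccr1 lay on the same side in every sample, with ratios of 0.405 to 0.653 and 0.519 to 0.742. Ccl6 lay on the other side, with a ratio of 1.02 to 1.35. Granule-poor cells were shallower, at a median of 2012.5 to 2488.5 UMIs against 3927 to 6699.5, and at an equal depth of 1000 UMIs the share of cells with a Ccl3 UMI was 39.2% to 42.5% in granule-rich and 41.3% to 49.8% in granule-poor cells. With totals scaled by TMM the median Ccl3 ratio moved from 0.526 to 0.844.

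Ccl4 was at 424, 1564, 1138 and 1972 CPM in macrophages and at 259, 898, 1054 and 1349 CPM in monocytes of samples 1 to 4. Sample 1 was the lowest in both classes, and the highest sample exceeded it 4.65-fold in macrophages and 5.21-fold in monocytes. A spread between samples of at least 2-fold, smaller than that of Ccl4, was seen for 13.4% of 7366 genes in macrophages and 10.9% of 6897 in monocytes. The share of genes with a spread as large as that of Ccl4 was not counted. In neutrophils Ccl4 was steadier, at 529.7, 732, 525 and 399 CPM. NK or ILC1 cells held 937, 339, 394 and 946 CPM. In sample 1, where macrophages were low, NK or ILC1 cells had the most Ccl4 of the 12 classes. The mast cells or basophils, 137 in all and outside the 12, held 1308 CPM pooled over samples, against 1218 CPM in pooled macrophages. The order was the reverse in sample 2, the only sample with at least 50 of them, at 277 CPM against 1564 CPM in macrophages.

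Macrophages were not uniform. Resident-like macrophages, gated on genes such as Cd163, Folr2 and Lyve1, held Ccl4 at 2786, 3606, 3491 and 3224 CPM, against 302, 750.1, 871 and 1426 CPM in macrophages gated on Arg1, Mmp12 and related genes and 428, 1449, 1238 and 2097 CPM in the macrophages of neither gate. The levels of the resident-like cells lay above those of the Arg1 Mmp12 cells in all samples without overlap, 2.26-fold to 9.22-fold apart within a sample. Ccl3 showed the same order, at 715, 878, 899 and 639 CPM against 123, 238, 212 and 266 CPM, or 2.40-fold to 5.83-fold. At least 2-fold higher levels in all 4 samples were met by 1.23% of 7455 genes in this comparison, and at least 2-fold lower levels by 0.51%. Sample 1 had only 28 resident-like cells, and over the other 3 samples the median ratio was 4.01 for Ccl4 and 3.69 for Ccl3. Ccl6 and Ccl9 were also higher in the resident-like cells, by 1.65-fold to 3.46-fold and by 1.32-fold to 2.90-fold. Ccr1 differed little, with a ratio of 0.928 to 1.32.

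Ccl4 and Ccl3 are close neighbours that many cells induce together, and the number of Ccl4 UMIs per Ccl3 UMI differed by class. In neutrophils the ratio was 0.843, 0.963, 0.723 and 0.615, below 1 in all 4 samples. It was 1.53, 3.28, 3.65 and 3.74 in monocytes, 2.81, 3.81, 4.22 and 5.24 in macrophages and 1.35, 1.87, 1.97 and 3.0 in NK or ILC1 cells. No neutrophil value overlapped those of monocytes, macrophages or NK or ILC1 cells. Among neutrophils the 95% interval included 1 in sample 2 only, 0.906 to 1.02. The neutrophil ratio was not particular to them, since ILC2 stood at 0.973, 0.583, 1.05 and 2.0, from 12 to 37 Ccl3 UMIs per sample. The ratio was similar in both neutrophil states, at 0.610 to 1.0 in granule-rich and 0.681 to 0.977 in granule-poor cells. Plasmacytoid dendritic cells, 88 in all, stood at the other end, with 483, 422, 466 and 859 CPM of Ccl4 and 6.46 to 16.2 Ccl4 UMIs per Ccl3 UMI.

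**Figure D2:**
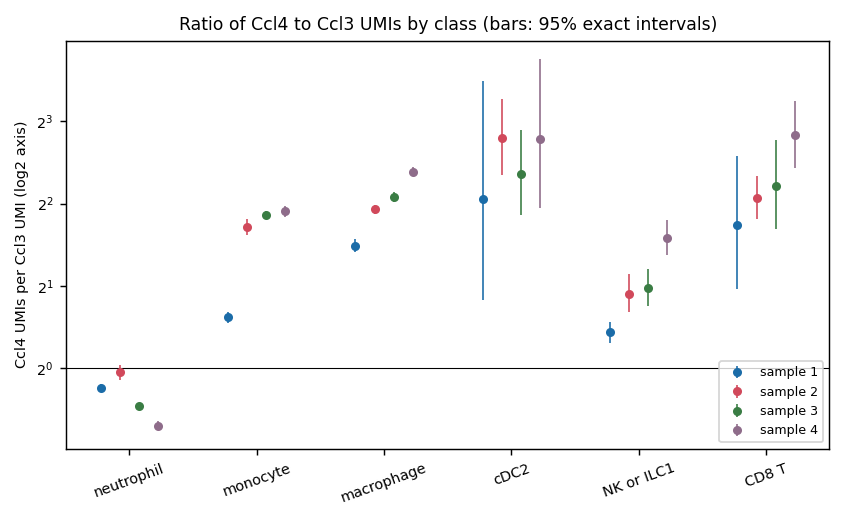
Ccl4 UMIs per Ccl3 UMI (log2 axis) in 6 classes, with 1 point per sample and bars for exact 95% intervals. Neutrophils lay at 0.615 to 0.963, below the line at 1, and the other 5 classes drawn lay above it. ILC2, which overlapped the neutrophils, are not drawn.

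Ccl5 was highest in cytotoxic lymphocytes. It reached 4968, 6841, 2900 and 2976 CPM in NK or ILC1 cells and 2476, 6553, 3832 and 3720 CPM in CD8 T cells, and these ranges overlapped, with the NK or ILC1 class higher in samples 1 and 2 and CD8 T cells in samples 3 and 4. Trdc+ T cells (gamma-delta T cells by gene) held 1243, 7095, 766 and 1195 CPM and led in sample 2. CD4 T cells were lower, at 351, 555, 243 and 330 CPM. The CD8 T level exceeded the CD4 T level 7.06-fold to 15.8-fold, in a comparison where 1.07% of 7935 genes were at least 2-fold higher in all 4 samples. After thinning, 72.0% to 77.6% of NK or ILC1 cells held a Ccl5 UMI.

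Among myeloid cells, mature dendritic cells had the most Ccl5, at 807, 1680.5, 1358 and 831 CPM, against 45.4, 180.2, 592 and 135 CPM in cDC2. The ratio was 2.29 to 17.8, and 5.14% of 7328 genes were at least 2-fold higher in all 4 samples. Macrophages held 286, 315, 618.1 and 338 CPM and monocytes 370.4, 239, 331 and 318 CPM, with overlapping ranges. Macrophages of sample 3 stood apart from the other samples, and so did its cDC2.

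Sample 2 had more Ccl5 in classes that do not usually make it. B cells were at 347 CPM there and at 55.0, 35.8 and 58.1 CPM in samples 1, 3 and 4, and fibroblasts were at 162 CPM against 9.21 to 13.6 CPM. The thinned share of B cells with a Ccl5 UMI was 11.5% in sample 2 and 1.5% to 3.06% in the others. The summed level of the 8 cytotoxic genes (Gzma, Gzmb, Prf1, Nkg7, Ifng, Klrg1, Gzmk and Xcl1) was also highest in the B cells of sample 2, at 248 CPM against 42.9 to 58.1 CPM. The same list stood at 22.8, 145, 65.1 and 86.6 CPM in the neutrophils of samples 1 to 4, and its part in the Ccl5 values was not tested. Over all kept cells of sample 2, Ccl5 stood at 1114 CPM against 323 to 483 CPM in the other samples. Neutrophil Ccl5 was under the B cell level in samples 1 and 2, at 31.2 and 187 CPM. In samples 3 and 4 neutrophils held 115 and 137 CPM, above the B cells of the same sample. The part of RNA from other cells in the neutrophil values was not tested in any sample.

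Ccl6 was at 627, 995, 809 and 764 CPM in neutrophils, 523, 799.8, 527 and 707 CPM in monocytes and 524, 785, 575 and 936 CPM in macrophages. The ranges of the 3 classes overlapped. Neutrophils were highest in 3 of 4 samples and macrophages in sample 4. Outside these classes cDC2 held 68.4 to 105 CPM, and B cells and fibroblasts were at 8.14 to 32.8 CPM. Epithelial cells, which passed the CD45 enrichment in small numbers, held 167, 88.1, 112 and 73.9 CPM, above the B cells of the same sample each time. ILC2 of sample 1 were at 181 CPM, held by 3.03% of the 66 cells, and at 6.19 to 27.6 CPM in the other samples.

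Ccl9, the neighbour of Ccl6, was at 339, 563, 414 and 608 CPM in monocytes and 258, 420.4, 387 and 600.5 CPM in macrophages. Monocytes were the higher of these classes in all 4 samples, by little in sample 4, where the intervals overlapped. This order holds for macrophages as a whole. Their resident-like part exceeded monocytes in all 4 samples, at 489, 935, 585 and 804 CPM, with only 28 such cells in sample 1. Neutrophils held 30.9, 28.9, 24.1 and 26.9 CPM, which was 0.0441 to 0.0909 of the monocyte level. This difference passed 2-fold in every sample, as did 20.4% of 6717 genes that were lower in neutrophils. The thinned share of cells with a Ccl9 UMI was 27.1% to 38.9% in monocytes, 2.17% to 3.01% in neutrophils and 0.306% to 0.838% in B cells, so a low Ccl9 signal in neutrophils stood above that of B cells. Ccl6 in the same comparison was 1.08-fold to 1.54-fold higher in neutrophils. Thus neutrophils, among the classes with the most Ccl6, had little Ccl9, although the correlation of both genes over classes was high. Resident-like macrophages, a part of the macrophage class, held more Ccl6 than neutrophils in all 4 samples, at 1239, 1950, 1148 and 1480 CPM.

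Ccr1 was shared by the main myeloid classes. Neutrophils held 450.1, 679, 612 and 415 CPM and were the highest class in all 4 samples, and monocytes (421, 454, 375 and 380.3 CPM) and macrophages (383, 329, 345 and 385 CPM) followed. Neutrophils were near the other classes in samples 1 and 4 and stood further above them in samples 2 and 3. Between samples the highest exceeded the lowest 1.21-fold in monocytes, 1.17-fold in macrophages and 1.64-fold in neutrophils. Type 2 conventional dendritic cells held 139, 169, 85.5 and 188 CPM, and mature dendritic cells 37.3, 34.9, 14.5 and 23.2 CPM, or 0.123 to 0.268 of the cDC2 level. At least 2-fold lower levels in all 4 samples were met by 4.41% of genes there, Ccl9 among them with a ratio of 0.0638 to 0.281. CD4 T cells had low Ccr1, at 15.4 to 32.8 CPM, and CD8 T cells 3.71 to 10.7 CPM, a ratio of 0.177 to 0.417 (1.7% of genes at least 2-fold lower). Both lay near the 9.38 to 21.4 CPM of B cells. ILC3 (group 3 innate lymphoid cells), 84 in all, held 32.0, 147, 113 and 32.8 CPM.

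Of 3 scavenging or atypical receptor genes, Ccrl2, which encodes a chemerin-binding protein, reached 187 to 254 CPM in macrophages and 85.3 to 420 CPM in neutrophils. The scavenger Ackr2 had 35 UMIs in all, and Ackr1 had 648, with the most in fibroblasts among the 12 classes. Of the 13 receptor signalling genes listed, 10 reached 100 CPM in some class, and Gnai2, the G protein subunit that couples chemokine receptors, and Rac2, a GTPase of leukocyte movement, were highest in neutrophils at 506 to 739 CPM and 560 to 861 CPM.

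Of the 6 other CC ligands listed, 3 were led by fibroblasts, the leading class being that with the highest median level over samples. Ccl2, Ccl7 and Ccl11 were highest in fibroblasts, at 1641 to 2828, 809 to 1490 and 361 to 1000 CPM. Ccl8 and Ccl12 were highest in macrophages, at 62.6 to 493 and 46.1 to 249.9 CPM, and Ccl24 in monocytes, at 14.1 to 45.1 CPM. Each of the 6 reached 100 CPM in some class and sample, so for Ccl24 another class exceeded the monocyte range in some sample. None of these 6 was led by neutrophils, which held at most 18.8 CPM of Ccl2, in contrast to the member ligands Ccl3 and Ccl6, which neutrophils led.

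**Figure D3:**
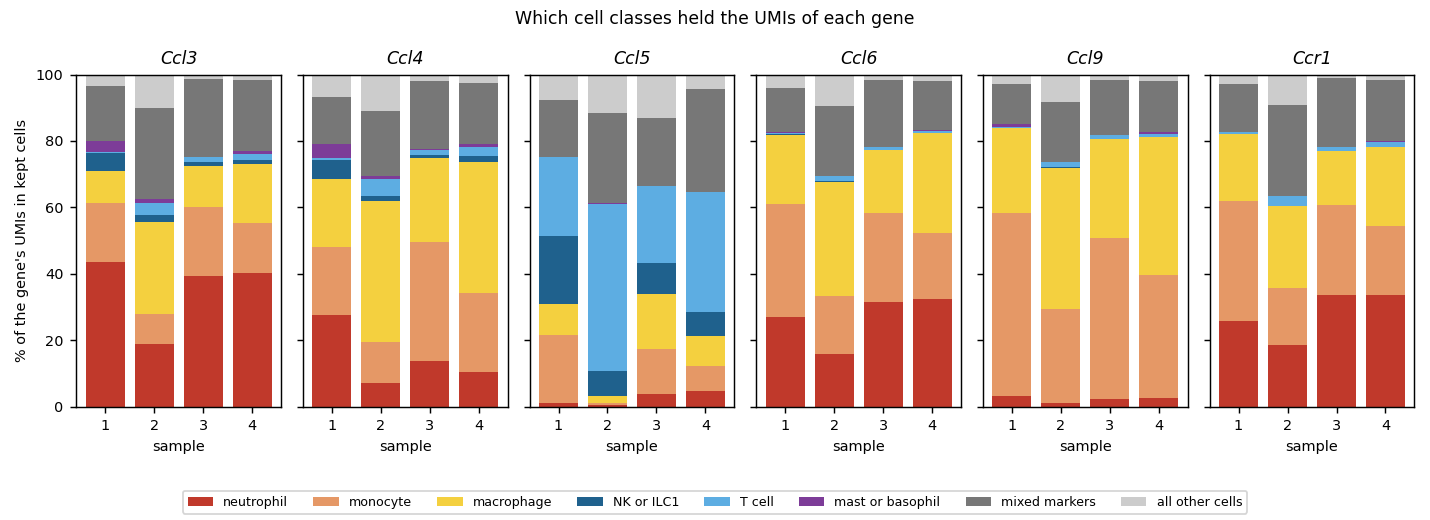
Share of each gene's UMIs, in percent of its UMIs in kept cells, held by 6 classes, by cells with mixed markers and by all other cells, for samples 1 to 4. Neutrophils held 43.5% of Ccl3 UMIs in sample 1 and 18.7% in sample 2, and T cells held 50.4% of Ccl5 UMIs in sample 2.

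The share of a gene's UMIs that a class held varied between samples and did not always follow its share of cells. Neutrophils held 18.7% to 43.5% of all Ccl3 UMIs and were 6.51% to 25.1% of kept cells. Their Ccl3 share was lowest in sample 2, where they were fewest, but highest in sample 1, where they were 15.7% of cells. Macrophages held 20.4% to 42.5% of Ccl4 UMIs and were 10.3% to 17.4% of cells. The 42.5% came from sample 2, where macrophages were at their lowest share of cells, 10.3%. NK or ILC1 cells were only 1.42% to 2.02% of cells but held 7.29% to 20.4% of Ccl5 UMIs, and T cells, including CD8 and Trdc+ cells, held 23% to 50.4%. Monocytes and macrophages each held over 25% of Ccl9 UMIs in every sample, at 28.2% to 55.1% and 25.5% to 42.5%. Mixed cells, with a median depth of 10766 to 13142 UMIs, held 12.1% to 31.2% of the UMIs of a gene and enter no class level.

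The spread between samples, as the highest sample over the lowest, differed by class, and is counted for members with a mean of at least 10 CPM in the class, as for all genes. In neutrophils Ccl5 alone of the 6 members passed 2-fold, at 6.0, where 15.7% of 6060 genes did. In macrophages Ccl3, Ccl4, Ccl5 and Ccl9 passed, at 2.72, 4.65, 2.17 and 2.33, where 13.4% of 7366 genes did. In monocytes Ccl3 and Ccl4 passed, at 2.13 and 5.21, where 10.9% of 6897 genes did. In NK or ILC1 cells Ccl6 and Ccr1 were under the mean, and the other 4 members passed, at 2.36 to 3.84, where 26.1% of genes did. In B cells Ccl9 was under the mean, and the other 5 passed, from 2.28 for Ccr1 to 9.68 for Ccl5, where 7.83% of 7616 genes did. In CD8 T cells Ccl9 and Ccr1 were under the mean, and the other 4 passed, from 2.65 for Ccl5 to 5.98 for Ccl4, where 17.5% did. Some of these spreads rest on few UMIs. Ccl9 had 8, 26, 12 and 7 UMIs in the NK or ILC1 cells of samples 1 to 4. In the B cells of sample 3, Ccl3, Ccl6 and Ccr1 had 27, 30 and 26 UMIs. The part of counting error in these spreads was not tested.

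Within samples, 7 pairs of related classes were compared, and a member was called where it differed at least 2-fold on the log2 scale of CPM + 1 in the same direction in all 4 samples. Between macrophages and monocytes no member was called, where 2.46% and 1.26% of 7194 genes were higher and lower. Ccl4 was 1.08-fold to 1.74-fold higher in macrophages in all 4 samples, and the ratio of Ccl9 was 0.747 to 0.987. Against monocytes, neutrophils had 1.80-fold to 3.72-fold more Ccl3, short of the call in sample 4, where 7.25% of genes were at least 2-fold higher in all 4 samples. For Ccl4 the direction differed by sample, with ratios of 2.04 in sample 1 and 0.296 in sample 4. Against CD8 T cells, NK or ILC1 cells had 5.83-fold to 52.0-fold more Ccl3 and 2.60-fold to 21-fold more Ccl4, called in a comparison where 2.39% of 7705 genes were at least 2-fold higher and 1.1% at least 2-fold lower in all 4 samples. The largest of these ratios came from sample 1. Ccl5 was not called there, with ratios of 0.757 to 2.01.

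**Figure D4:**
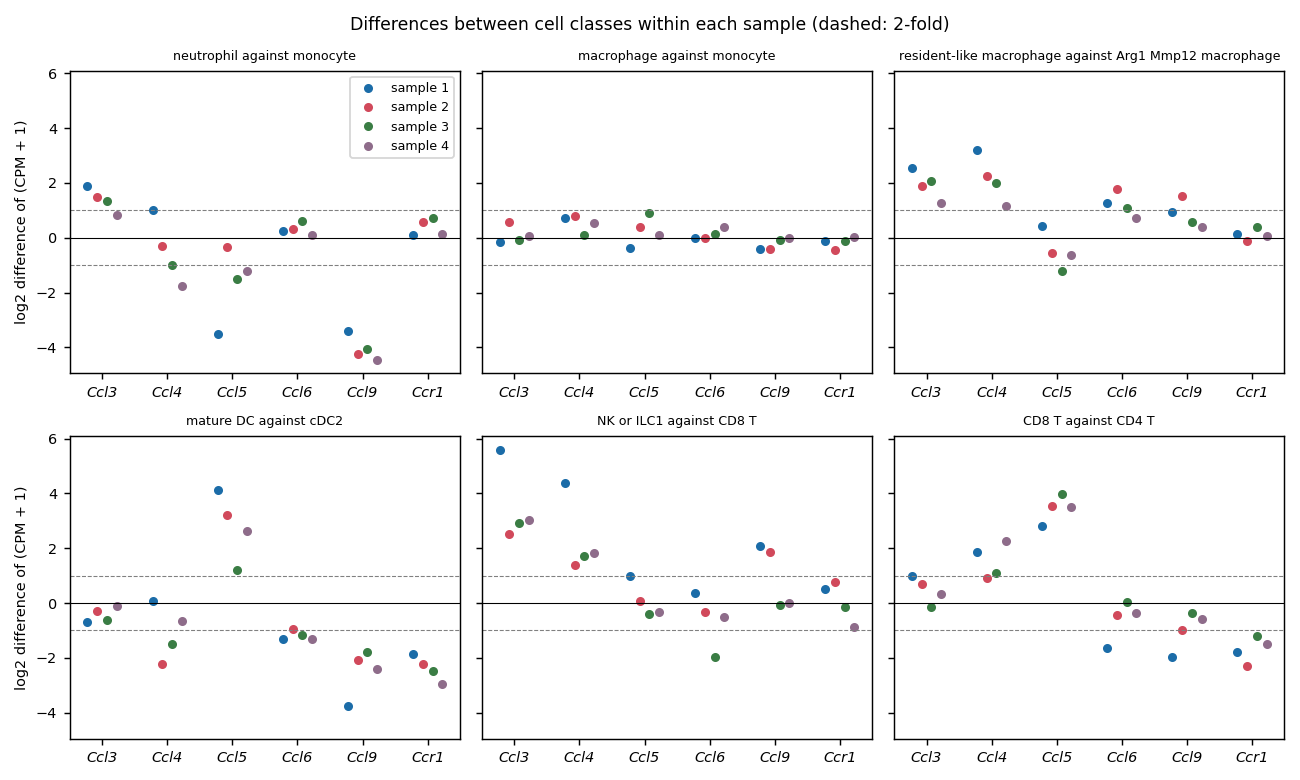
Differences between 6 pairs of classes within each sample (log2 of CPM + 1), with 1 point per sample and dashed lines at 2-fold. Ccl9 lay below the lower line for neutrophils against monocytes in all 4 samples, and Ccl3 and Ccl4 lay above the upper line for NK or ILC1 cells against CD8 T cells.

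Ccl3 and Ccl4 did not change evenly from monocyte to macrophage. Monocytes and macrophages were placed in 5 bins by the share of the macrophage score in the sum of their macrophage and monocyte marker scores. Ccl4 was at 339.6, 1381, 1308 and 1518 CPM in the most monocyte-like bin, 189, 479, 809.6 and 1299 CPM in the middle bin, and 726, 1925, 1812 and 2661 CPM in the most macrophage-like bin of samples 1 to 4. The middle bin was thus the lowest of these 3 in every sample. Ccl3 followed the same course, with 199, 494, 404 and 498 CPM in the first bin, 114, 95, 233 and 326 CPM in the middle and 241, 515, 375 and 447 CPM in the last. Ccl9 was lower in the last bin than in the middle bin in samples 1, 2 and 4, at 95.8 against 349 CPM in sample 1, and slightly higher in sample 3, at 386 against 364 CPM. Ccr1 changed little, between 314 and 465 CPM over all bins and samples. Every bin held at least 94 cells.

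**Figure D5:**
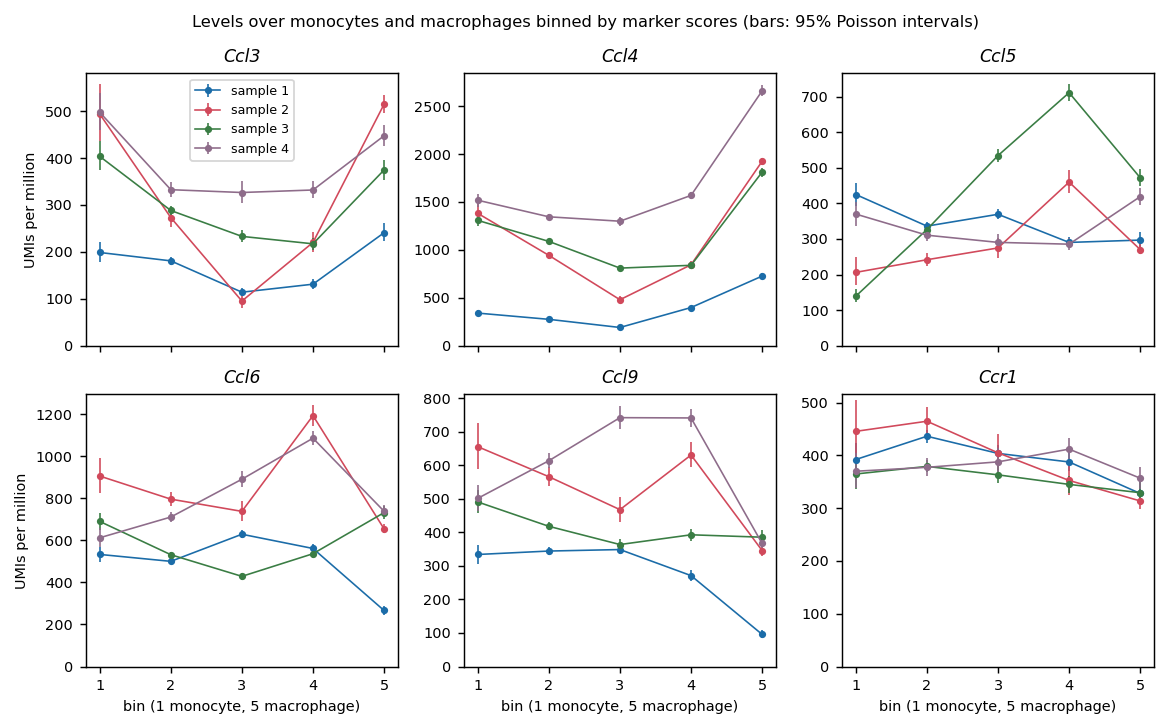
Level of each gene (CPM) in 5 bins from monocyte-like to macrophage-like cells, with 1 line per sample and bars for 95% Poisson intervals. Ccl3 and Ccl4 were lower in the middle bin than at both ends in every sample, and Ccr1 stayed between 314 and 465 CPM.

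Basophil-like cells, in which the basophil proteases Mcpt8 or Prss34 dominated, were few, with 17 cells in all, and were separated after class levels had been seen. Pooled over samples they held Ccl4 at 8272 CPM (7743 to 8827) and Ccl3 at 4585 CPM (4194 to 5003), higher than any of the 12 classes pooled, though not in sample 2. Ccl4 was at 15138, 1252, 8085 and 10867 CPM in the 6, 5, 2 and 4 cells of samples 1 to 4, and Ccl3 at 10632, 270, 4139 and 4216 CPM. Ccl6 and Ccl9 were at 1607 and 1317 CPM in the pooled cells, and the 5 cells of sample 2 held 0 UMIs of either, which allows up to 73.7 CPM at a floor of 3 counts and 90.6 CPM by the exact Poisson limit. In the 115 cells in which the mast cell proteases Mcpt1, Mcpt2, Tpsb2 or Cma1 dominated, Ccl3 and Ccl4 were at 295 and 455 CPM, Ccl6 at 8.09 CPM and Ccl9 at 4.05 CPM.

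Within a class the genes differed in how often they were found in the same cell, as measured after thinning to 1000 UMIs. Among macrophages with a Ccl4 UMI, 28.1%, 38.5%, 33.4% and 32.5% also held a Ccl3 UMI in samples 1 to 4, against 6.99%, 8.52%, 10.9% and 11.6% of those without, or 2.81 to 4.51 times as many. In neutrophils the same comparison gave 1.21 to 1.61 times, at 50.1% to 55.0% against 34.3% to 41.9%. B cells with a Ccl4 UMI also held Ccl3 more often, 3.89 to 5.06 times, at 4.93% to 14.3% in samples 1, 2 and 4. Ccl6 was found 1.59 to 2.42 times as often in macrophages with a Ccl9 UMI as in those without. Macrophages with a UMI of Ccr1, the receptor gene, held Ccl6 0.953 to 1.24 times as often as those without.

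Macrophages with a Ccl4 UMI also held more transcripts of a list of 10 NF-kB response genes (among them Tnf, Il1b, Nfkbia and Cxcl2), at 15.5, 12.1, 15.4 and 17.6 UMIs per 1000 against 9.65, 8.01, 9.41 and 12.1 in those without, or 1.46 to 1.64 times. Monocytes gave 1.48 to 1.72 times and neutrophils 1.15 to 1.40 times. B cells held Ccl4 at 30.4 to 120 CPM and gave 1.77, 2.01 and 2.24 times in samples 1, 2 and 4. Those with a Ccl4 UMI, 60, 142 and 21 cells, held 1.6 to 2.71 UMIs of the list per 1000. The association was thus also seen in a class that does not lead for Ccl4. The part of RNA from other cells or of remaining doublets in it was not tested. NK or ILC1 cells gave 1.14 to 1.43 times, and CD8 T cells 0.968 and 1.46 times in samples 2 and 4. The list of 11 immediate early genes, which respond to tissue handling as well as to stimulation, differed by 1.28 to 1.39 times in macrophages and 0.948 to 1.20 times in monocytes. The 6 heat shock genes differed by 1.01 to 1.20 times in macrophages, and the part of cell handling in the Ccl4 values was not tested.

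Likeness between genes was described by Pearson's r of log2(CPM + 1) over 59 sums of a class in a sample, which share libraries and samples, across 8654 genes. Ccl3 and Ccl4 had r = 0.891, Ccl6 and Ccr1 r = 0.882, Ccl6 and Ccl9 r = 0.830, and Ccl5 and Ccl6 r = -0.141. Besides the members, the genes most like Ccl6 were Cd14, Igsf6, Tlr2, Clec4d and Wfdc17, with r of 0.896 to 0.940, and those most like Ccr1 were Lrrc25, Igsf6, Nlrp3, Clec4a2 and Mefv, with r of 0.920 to 0.937. Ccl9 was most like Clec4a3, Clec4a1, Tgfbi, Lyz2 and C3ar1 (0.868 to 0.923). For Ccl4 they were Plek, Aoah, Cd244a, Tm6sf1 and Fcer1g (0.768 to 0.801), and for Ccl3 Lilr4b, Lilrb4a, Fcgr3, Aoah and Slc11a1 (0.728 to 0.764). Ccl5 was most like Il12rb2, Bend4, Prex1, Gnptab and Tbx21 (0.789 to 0.847), of which Tbx21 encodes T-bet, the transcription factor of type 1 lymphocytes.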

How the data were processed

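The authors deposited UMI counts of genes per cell for 4 samples. Per the labels' processing notes they used Cell Ranger 5.0.0, STAR and Seurat with mm10, whereas the matrix headers name Cell Ranger 7.0.1. Gene symbols were read from the deposited files, and positions from GENCODE M21.

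Cells with at least 200 genes and under 20% mitochondrial UMIs were kept, and the cells with the highest Scrublet scores were removed (0.8% per 1000 cells). Cells were gated on 18 marker lists by mean marker level, each marker scaled to its 0.95 quantile, with at least 3 markers detected. Cells whose score for an unlike lineage reached 0.6 of the highest were set aside. An earlier rule, by share of markers detected, was replaced after class sizes had been seen. Of 33344 gated cells, 84.1% lay in a Leiden cluster of the same class. Each cluster was named by the most frequent gate result of its own cells, so this share is not an independent check of the gate. In simulated cells, drawn from the mean profiles of the gated classes, 99.3% were gated, of which 99.7% kept their class. Of 300 simulated doublets of a neutrophil and a B cell, 60.7% were set aside. Simulated cells of a class differed only by depth and counting error, so these shares do not measure the accuracy of the gate on real cells.

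UMIs were summed per class and sample and divided by their total (CPM). Comparisons used log2(CPM + 1) and genes with a mean of at least 10 CPM. In these, 186 of 200 simulated 4-fold changes between macrophage and monocyte sums were called. No test between samples was run, since the labels give no groups. The members and lists were chosen with earlier results of these data known. Genes named are the 6 members, the listed pathway genes (some are not reported here), and the 5 genes most like each member. Totals scaled by TMM (edgeR 4.0.16) or median of ratios, cluster-based classes, other filters, and single samples left out were the alternatives. Python and scanpy were used.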

Additional observations from a re-analysis of the deposited data

How the results depend on the processing

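The 6 results on leading classes were recomputed under other filters, gates, scalings and with single samples left out. The number of samples in which the leading class was highest stayed within 1.5 times of that reported in 86 alternatives and moved further in 4, though it often changed by 1 sample. With 1 sample left out, a count of 3 or 4 could not move further than 1.5 times, so those alternatives do not bear on stability. For Ccl3 it was 4 against 3 after thinning, with Leiden clusters and with either scaling, for Ccl4 2 against 3 with either scaling, for Ccl6 4 against 3 with either scaling and 2 with unlike-lineage cells kept, and for Ccl9 3 against 4 with Leiden clusters. The NK or ILC1 class led for Ccl5 in 2 samples with median-of-ratios totals against 1, and in 0 to 1 with a sample left out. With cells of unlike lineage markers kept, monocytes led for Ccl9 and neutrophils for Ccr1 in 2 samples each against 4. The median Ccl5 ratio of NK or ILC1 over CD8 T cells, 0.922, turned to 1.01 with median-of-ratios totals and to 1.04 without sample 3 or sample 4, within a range of 0.80 to 1.04 over single samples left out. The number of genes at least 2-fold apart between neutrophils and monocytes, 1858, was 1066 with unlike-lineage cells kept and 907 at a mean of at least 50 CPM. Between monocytes and macrophages it was 268, and 122 at 50 CPM. Between NK or ILC1 and CD8 T cells it was 269, against 435 with Leiden clusters, 134 at 50 CPM and 282 to 486 with a sample left out, the highest without sample 2. Except where the setting itself tests fewer genes or samples, the cause was not tested. The gate by share of markers detected was added after seeing the data. TMM totals raised the median neutrophil level from 688 to 1146 CPM for Ccl3, from 787 to 1236 CPM for Ccl6 and from 531 to 906 CPM for Ccr1. Several median ratios moved over 1.5 times with no change of direction. Ccl3 in NK or ILC1 over CD8 T cells, 8.13, was 24.6 after thinning and 4.66 with unlike-lineage cells kept. Ccl5 in mature dendritic cells over cDC2, 7.74, was 18.9 with at least 4 markers, 4.49 with Leiden clusters and 3.84 with unlike-lineage cells kept. Ccr1 in the same pair, 0.188, was 0.0506 with Leiden clusters and 0.0925 with the added gate. Ccl9 in neutrophils over monocytes, 0.0549, was 0.0925 with unlike-lineage cells kept, and Ccl6 and Ccr1 in that pair, 1.22 and 1.29, were 1.90 and 1.96 with median-of-ratios totals. Samples could not be paired with each other because the labels give no groups, whereas classes were compared within each sample.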
